A study of Mus musculus with 4 samples.

Results

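The miR-34 and miR-449 family comprised 8 of the 567 mouse miRNAs on the arrays, picked by name because their array signals had stood out in earlier results of these data. They were mmu-miR-34a, mmu-miR-34b-5p, mmu-miR-34b-3p, mmu-miR-34c, mmu-miR-34c*, mmu-miR-449a, mmu-miR-449b and mmu-miR-449c (the prefix for mouse is left out from here on), and 6 of the 8 were detected on at least 1 array. Total RNA was from Sertoli cells, the somatic cells that nurse germ cells in the seminiferous tubule, from B6129 male mice aged 5 to 7 weeks, with 6 mice pooled per group for the arrays (5 to 7 by the labels and the methods). Sham mice carried a 0.2 cm Silastic tube under the skin and received saline (1 array). Flut+Acy mice received the antiandrogen flutamide through such a tube and acyline, an antagonist of gonadotropin-releasing hormone, at 20 mg/kg body weight (2 arrays). Flut+Acy+T mice received flutamide, acyline and testosterone (1 array). The labels name these arrays control, flutamide and testosterone, and the study's methods give acyline to both drug groups. That leaves unstated if the 2 Flut+Acy arrays shared 1 RNA, so their spread may be technical, and Sham and Flut+Acy+T had no replicate. The comparisons ask whether the family's signals changed with androgen suppression and again with testosterone.

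The miR-34 and miR-449 miRNAs share a seed, the stretch near the 5′ end that pairs with target mRNAs, and so are thought to act on overlapping targets, many of them cell cycle genes. Transcription of miR-34a and of the miR-34b and miR-34c hairpins is a textbook response to p53. The miR-34b/c and miR-449 clusters are known in the testis as miRNAs of spermatocytes and spermatids, and elsewhere as miRNAs of multiciliated epithelium.

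The mature sequences of 6 of the 8 members were found by name in RefSeq (GRCm38.p6). They are shown because seed sharing is what makes these miRNAs a family, and because the arms of the miR-34b hairpin gave different signals below. Each is written 5′ to 3′, with the seed (bases 2 to 8) in capitals. The name miR-34c* is the array's name for miR-34c-3p.
miR-34a: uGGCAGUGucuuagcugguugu
miR-34b-5p: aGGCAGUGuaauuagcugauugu
miR-449a: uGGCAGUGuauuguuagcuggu
miR-449c: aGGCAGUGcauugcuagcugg
miR-34b-3p: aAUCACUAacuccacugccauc
miR-34c*: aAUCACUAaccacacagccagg
The first 4 had 1 seed and the miR-34b-3p and miR-34c* arms had another. Between miR-34a and miR-449a, 15 of 22 positions were equal, and between miR-34b-3p and miR-34c* 17 of 22. Of the 567 array miRNAs, 454 had a RefSeq mature sequence by name, and among these no miRNA outside the family had either seed.

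The members come from 3 places in the genome (mm9, as the scanner files give them), and the positions here are those of the bases that the probes cover. For miR-34a this was chr4:149442584-149442603, with no other annotated gene over its hairpin. On chromosome 9, miR-34b-5p (chr9:50911715-50911736) and miR-34c (chr9:50911181-50911200) lay 534 bases apart on the minus strand, within the spans of Btg4 and Hoatz in the RefSeq annotation. On chromosome 13, miR-449a (chr13:113827759-113827778) lay 118 bases from miR-449b and 1536 bases from miR-449c, all inside Cdc20b, a gene of the Cdc20 family. Apart from miR-449b and miR-449c, each member had 2 probes with 10 spots each. The probes paired with 19 or 20 bases for miR-34a, miR-34c and miR-449a, with 21 or 22 for miR-34b-5p, with 15 or 16 for miR-34b-3p and with 13 or 14 for miR-34c*. On miR-34a they began at the 3′ end and left the first 2 or 3 bases, part of the shared seed included, unpaired.

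The Flut+Acy+T array differed in quality from the others, and this touches every value given for it. It detected 102 mouse miRNAs, whereas Sham detected 193 and the Flut+Acy pair 275 and 270. Its lowest detected total signal was 238 scanner units, against 0.766 to 2.67 on the other arrays, and the software marked 535 of its 12493 spots as nonuniform against 0 to 4. Of its 672 negative-control spots, 199 exceeded 1000 units, whereas none did on the other arrays. The part of these differences in the results was not tested.

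In the signals as scanned, all 6 detected members were brighter on each Flut+Acy array than on Sham. Without normalization all 6 were at least 2-fold higher, but so were 70.3% of the 283 miRNAs that Sham or Flut+Acy detected. The 6 members together held 1.37% of the summed positive mouse miRNA signal on Sham, 9.95% and 9.24% on the Flut+Acy pair and 3.33% on Flut+Acy+T. This share does not depend on normalization between arrays, although the brightest miRNAs weigh most in it. The sum also takes in positive signals of undetected miRNAs. The median software error per miRNA was 123 units on Flut+Acy+T, against 2.46 to 3.87 on the other arrays.

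**Figure D1:**
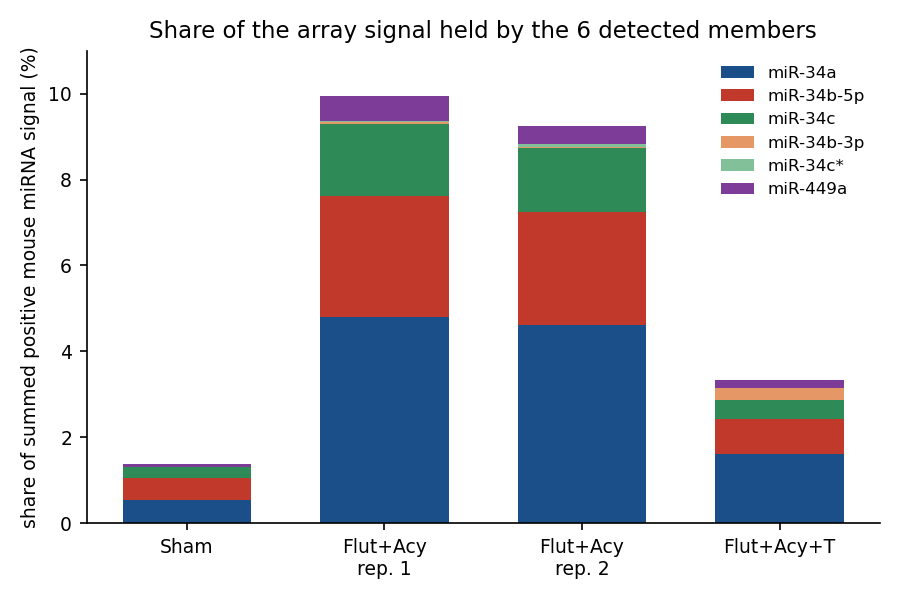
Share of the summed positive total signal of 567 mouse miRNAs held by the 6 detected members, in percent. The axis is linear from 0, with 1 bar per array and 1 color per member. No error is drawn, and the median software error per miRNA was largest on Flut+Acy+T. The bars stand at 1.37% on Sham, 9.95% and 9.24% on the Flut+Acy pair and 3.33% on Flut+Acy+T, and segments of different members are not comparable as amounts of RNA because their probes differ.

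Among the 5p arms that carry the shared seed, miR-34a, the member best known as a p53 target, was detected on all 4 arrays. Its total signal, the background-subtracted sum over its probes, was 319 ± 26.1 scanner units on Sham (± is the software's error for 1 array). It was 6707 ± 534 and 7455 ± 587 on the Flut+Acy pair and 3246 ± 282 on Flut+Acy+T. All 20 of its spots lay well above background on each array, the order was Sham, Flut+Acy+T, Flut+Acy, and the error ranges of the Flut+Acy pair overlapped. On Flut+Acy+T, however, the 95th percentile of the negative-control spots was 3100 units. All spots of its 19-base probe (1075 to 1466 units) and the lowest spot of its 20-base probe (2975) lay under that.

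The 5p arm of the miR-34b hairpin, miR-34b-5p, followed the same order. Its total signal was 294 ± 22.0 (Sham), 3940 ± 290 and 4234 ± 310 on the Flut+Acy pair and 1630 ± 172 on Flut+Acy+T. For miR-34c, made from the same transcript as miR-34b, it was 141 ± 12.6 on Sham, 2339 ± 203 and 2421 ± 206 on the Flut+Acy pair and 933 ± 148 on Flut+Acy+T. In both, the error ranges of the Flut+Acy arrays overlapped each other and not those of Sham or Flut+Acy+T.

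The member from the Cdc20b locus, miR-449a, gave 39.8 ± 4.14 units on Sham, then 801 ± 66.7 and 679 ± 54.7 on Flut+Acy. On Flut+Acy+T it was 362 ± 126 and not called detected, with 2 of its 20 spots well above background and 3 nonuniform. Both Flut+Acy arrays lay above Sham and above Flut+Acy+T by more than the software's errors. Its cluster partners miR-449b and miR-449c were not detected on any array, and all their total signals were below 0.

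The 3p arms were detected on fewer arrays. For miR-34b-3p the total signal was 0.483 ± 2.46 units for Sham (not detected), 40.3 ± 4.06 and 51.8 ± 5.49 on the Flut+Acy pair and 548 ± 131 on Flut+Acy+T. For miR-34c* it was 2.08 ± 2.48 on Sham (not detected), 62.3 ± 5.97 and 78.9 ± 7.76 on the Flut+Acy pair and -112 ± 123 on Flut+Acy+T (not detected). Both 3p arms were therefore brighter on Flut+Acy than on Sham. On Flut+Acy+T only miR-34b-3p was detected, and no fall of miR-34c* could be measured there.

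**Figure D2:**
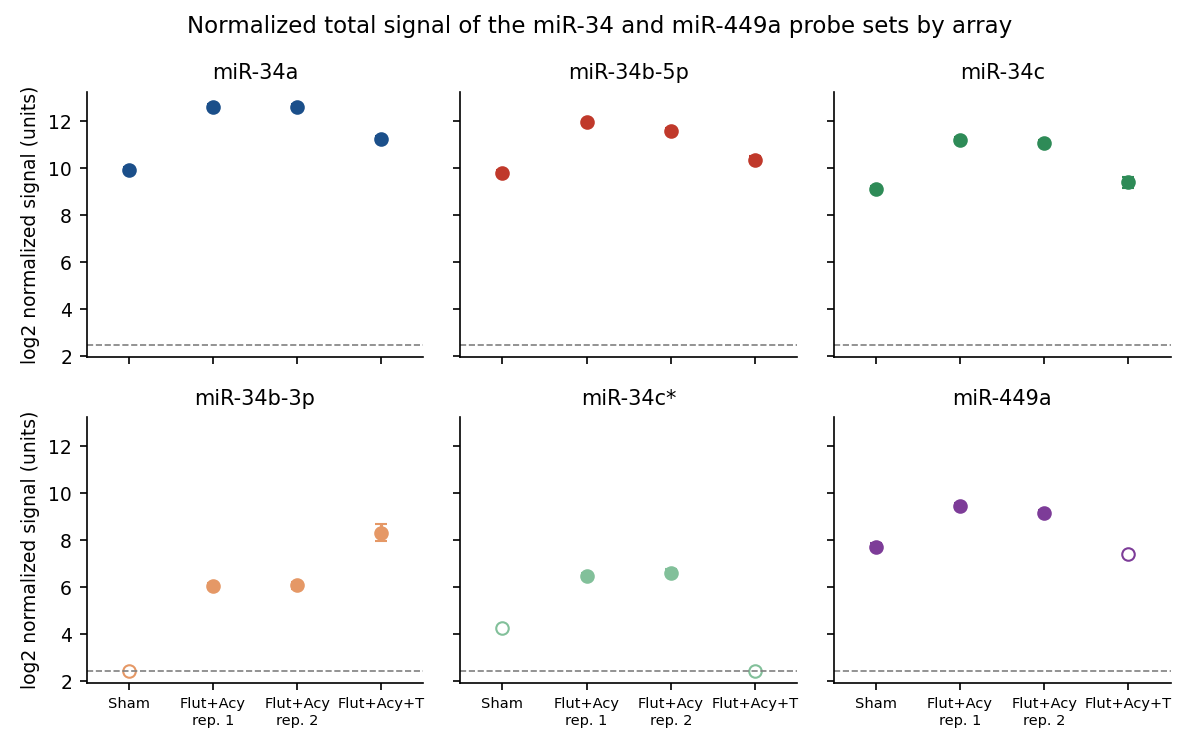
Quantile-normalized total signal of each detected member on a log2 axis, by array. Filled points are detected signals with the software's error for that array, open points were not detected, and the dashed line is the floor of 5.46 units; all members lie higher on Flut+Acy than on Sham, and miR-34b-3p alone is highest on Flut+Acy+T.

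The groups were then compared as log2 differences of quantile-normalized total signals. Since the members were chosen with these contrasts known, the differences are descriptions without a test. The log2 difference between Flut+Acy and Sham was 2.68 for miR-34a (6.40-fold), and both Flut+Acy arrays took the same normalized value. It was 2.02 for miR-34c (4.06-fold, pair SD 0.08), 1.97 for miR-34b-5p (3.92-fold, pair SD 0.25) and 1.60 for miR-449a (3.03-fold, pair SD 0.19). The pair SD (n = 2) may be technical and is no measure of the spread between mice, and for miR-34a it was 0 after normalization. With Sham undetected, miR-34b-3p was at least 2.85-fold and miR-34c* at least 3.99-fold higher in Flut+Acy, against the lowest signal detected on Sham.

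All 6 of the detected members exceeded Sham at least 2-fold on each Flut+Acy array, as did 21.9% of the 283 miRNAs that Sham or Flut+Acy detected, and 0 of the 6 were at least 2-fold lower, against 15.9%. The median log2 difference was 2.15 over the 6 members and -0.18 over the 283. Restricted to miRNAs with detection on Sham and the whole Flut+Acy pair, the counts were 4 of 4 members and 12.7% of 189. With normexp background correction, an alternative that lifts dim signals, 4 of the 6 members passed 2-fold, against 5.65% of 283, and miR-34b-3p (0.70) and miR-34c* (0.58) did not. In RNA from a purified cell fraction, a change in the share of a cell type and a change of RNA per cell cannot be told apart.

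Both probes of each 5p arm gave similar ratios before any normalization between arrays. The Flut+Acy over Sham ratio of scanner signals was 25.0 and 21.4 for the probes of miR-34a and 14.0 and 13.8 for those of miR-34b-5p. It was 20.9 and 16.3 for miR-34c and 21.6 and 17.9 for miR-449a. They exceed the normalized folds, and the Flut+Acy arrays were brighter as a whole, with summed signals of 139602 and 161460 units where Sham had 57940.

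**Figure D3:**
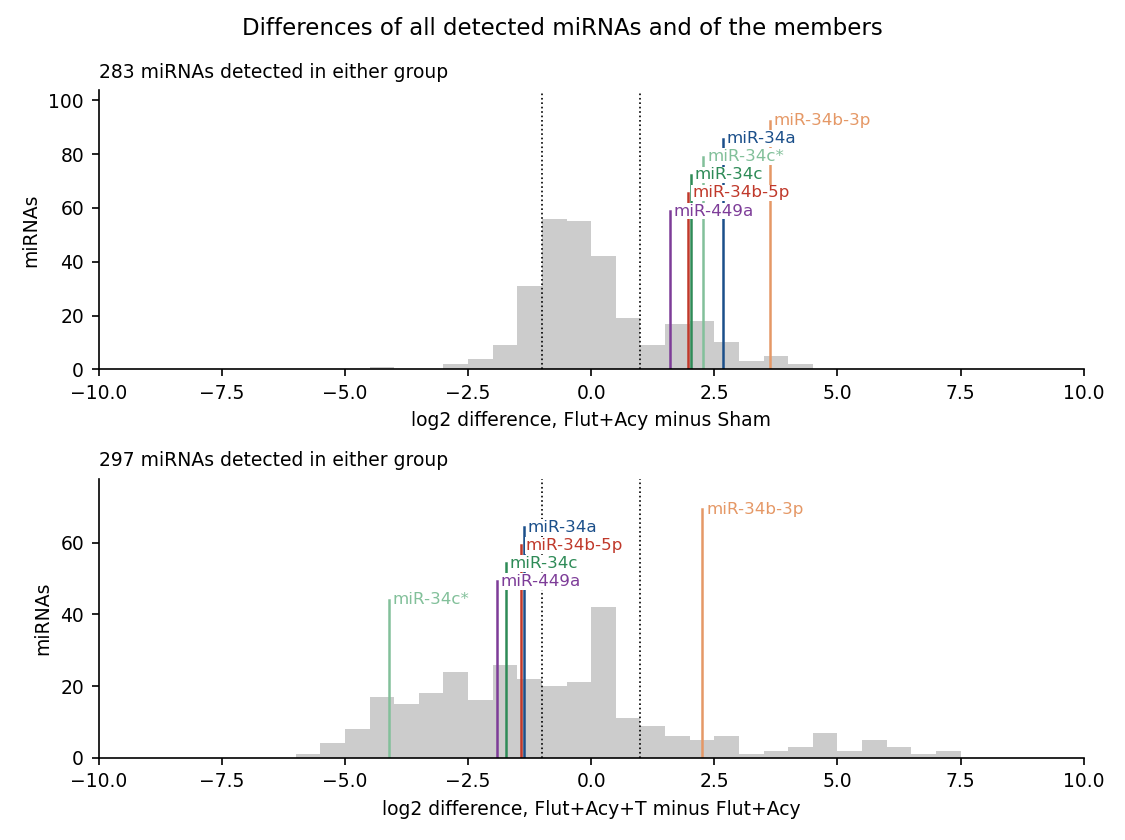
Distribution of log2 differences in normalized signal over all miRNAs detected in either group (gray bars, number of miRNAs per bin), with the members as labelled lines and dotted lines at 2-fold. Between Flut+Acy and Sham (above, 283 miRNAs) all 6 members lie past 2-fold on the higher side; between Flut+Acy+T and Flut+Acy (below, 297 miRNAs) 5 lie past 2-fold on the lower side and miR-34b-3p lies at 2.26.

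With testosterone, the detected 5p arms of the miR-34 hairpins were lower than in Flut+Acy. The log2 difference between Flut+Acy+T and Flut+Acy was -1.37 for miR-34a, -1.42 for miR-34b-5p (pair SD 0.25) and -1.73 for miR-34c (pair SD 0.08). In linear terms Flut+Acy exceeded Flut+Acy+T by 2.59-fold, 2.67-fold and 3.32-fold. Not detected on Flut+Acy+T, miR-449a had a Flut+Acy level 3.77-fold above its own undetected signal there, and with normexp background correction the log2 difference was -0.25, which no longer reached 2-fold. Its probes disagreed there, with scanner ratios of Flut+Acy+T over Flut+Acy of 0.914 for the 19-base probe, which held 2 nonuniform spots, and 0.370 for the 20-base probe. For miR-34a and miR-34b-5p the probe ratios lay between 0.369 and 0.490. For miR-34c the 20-base probe gave 0.40, while the 19-base probe (139 ± 88.3 units) had none of its 10 spots well above background on Flut+Acy+T.

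By normalized value, 5 of the 6 members on Flut+Acy+T were at least 2-fold below their Flut+Acy level, but so were 50.5% of the 297 miRNAs detected on either, and 1 of the 6 was at least 2-fold above it, against 17.5%. The count includes miR-34c*, for which no fall could be measured, because its Flut+Acy level of 94.4 normalized units lay under the lowest signal detected on Flut+Acy+T (103.5 units). With detection required on Flut+Acy+T and on the Flut+Acy pair, 3 of 4 members were at least 2-fold lower on Flut+Acy+T, against 13.3% of 83. The median log2 difference there was -1.40 over the 4 members and 0.20 over the 83. This filter drops miRNAs too low on Flut+Acy+T to be detected, so the 13.3% and the 0.20 are partly set by it. Without the filter the medians were -1.58 over the 6 members and -1.11 over the 297. Flut+Acy+T is a single array, so these differences have no replicate check on that side.

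The arms of the miR-34b hairpin differed in direction. While miR-34b-5p was lower on Flut+Acy+T than in Flut+Acy, miR-34b-3p was higher by a log2 difference of 2.26 (4.78-fold, pair SD 0.02), and the 3p minus 5p difference was 3.67. Both miR-34b-3p probes had this direction, with scanner ratios of 11.2 and 12.2, and the difference stayed above 1 under every one of the 11 alternatives run for it (1.25 to 3.58). Of the same 83 miRNAs, 21.7% had a Flut+Acy+T level at least 2-fold above that in Flut+Acy, a share that the detection filter partly sets (below).

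The spots behind the miR-34b-3p signal were scattered and within the range of the array's negative controls. On Flut+Acy+T its spots lay between 55.7 and 530 units for the 15-base probe (none well above background) and between 301 and 1265 for the 16-base probe (5 of 10 well above background, 1 nonuniform). The spot CV was 58.2% and 42.7%, against 13.4% and 7.46% for the miR-34b-5p probes on the same array. The negative-control spots of that array had 5th and 95th percentiles of -107 and 3100 units, a range that also covers the 20 spots of miR-34b-5p (735 to 1760).

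A limit of detection also bears on this direction. In Flut+Acy, miR-34b-3p stood at 67.5 normalized units, below the 103.5 needed for detection on Flut+Acy+T. Of 263 miRNAs with detection on the Flut+Acy pair, 125 were that dim. Flut+Acy+T detected 14 of the 125, and all 14 were at least 2-fold higher there. A miRNA this dim could be detected on Flut+Acy+T only if its signal there was higher. The 14, miR-34b-3p among them, are part of the 18 miRNAs behind the 21.7% above, so that share is no neutral reference.

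**Figure D4:**
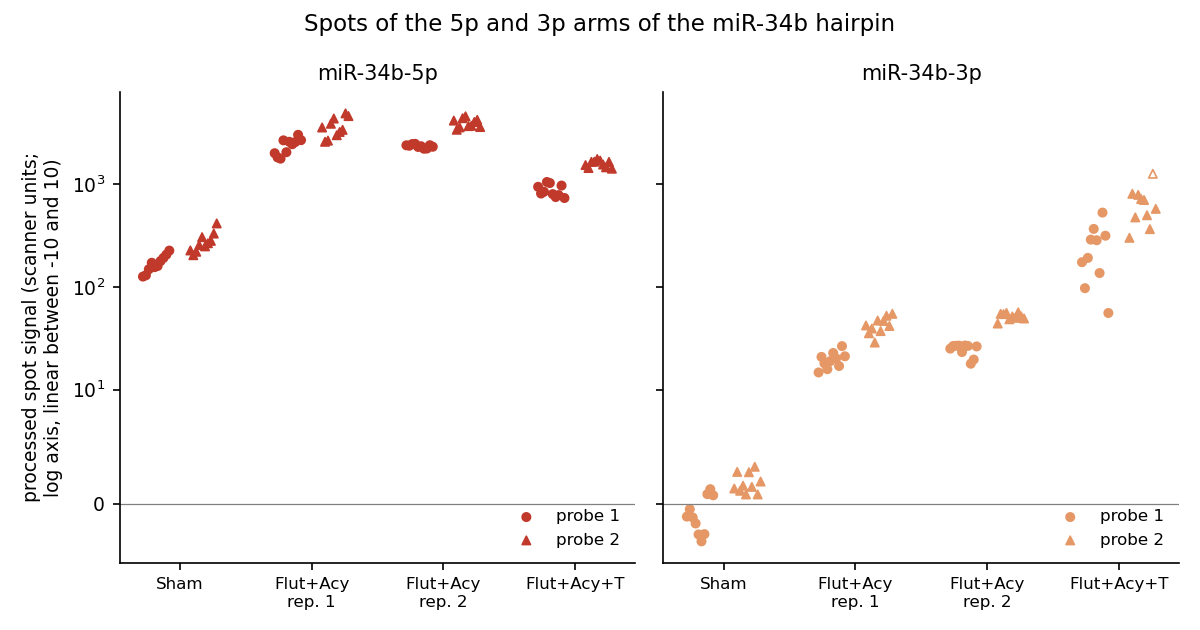
Processed signal of each spot for the 5p (left) and 3p (right) arms of the miR-34b hairpin, by array, in scanner units on a log axis that is linear between -10 and 10; circles and triangles are the 2 probes of each arm with 10 spots each, and an open symbol is a spot marked nonuniform. The miR-34b-5p spots lie lower on Flut+Acy+T than on Flut+Acy, whereas those of miR-34b-3p lie higher and spread from 55.7 to 1265 units.

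Against Sham, the Flut+Acy+T levels of the members were close for some and apart for others. The log2 difference between Flut+Acy+T and Sham was 1.30 for miR-34a, 0.55 for miR-34b-5p and 0.29 for miR-34c. It was -0.32 for miR-449a, which was not detected on Flut+Acy+T. Undetected on Sham, miR-34b-3p on Flut+Acy+T exceeded the lowest signal detected on Sham 13.6-fold in the main processing. With normexp background correction its log2 difference from Sham was 1.96, the lowest of the 11 alternatives. Of the 5 members detected on either array, 3 lay within 2-fold of Sham, against 37.6% of 218 miRNAs, 2 (miR-34a and miR-34b-3p) were at least 2-fold higher, against 17.9%, and 0 were at least 2-fold lower, against 44.5%. Each side is 1 array here, and the Sham array is the one used in the comparison with Flut+Acy as well.

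These differences from Sham depended on how the arrays were scaled. With each array scaled to its 75th percentile over all mouse miRNAs, miR-34a was lower on Flut+Acy+T than on Sham (-0.46). With that scaling miR-34b-5p was at -1.34 and miR-34c at -1.08, both no longer within 2-fold. With no normalization between arrays, miR-34a, miR-34b-5p and miR-34c were higher on Flut+Acy+T by 3.35, 2.47 and 2.73. For miR-449a the difference turned to 1.31 with the 75th percentile over commonly detected miRNAs and to 3.18 without normalization, and it was no longer within 2-fold. Relative to Flut+Acy, the differences from Sham and from Flut+Acy+T kept their signs for all 6 members under every alternative run.

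**Figure D5:**
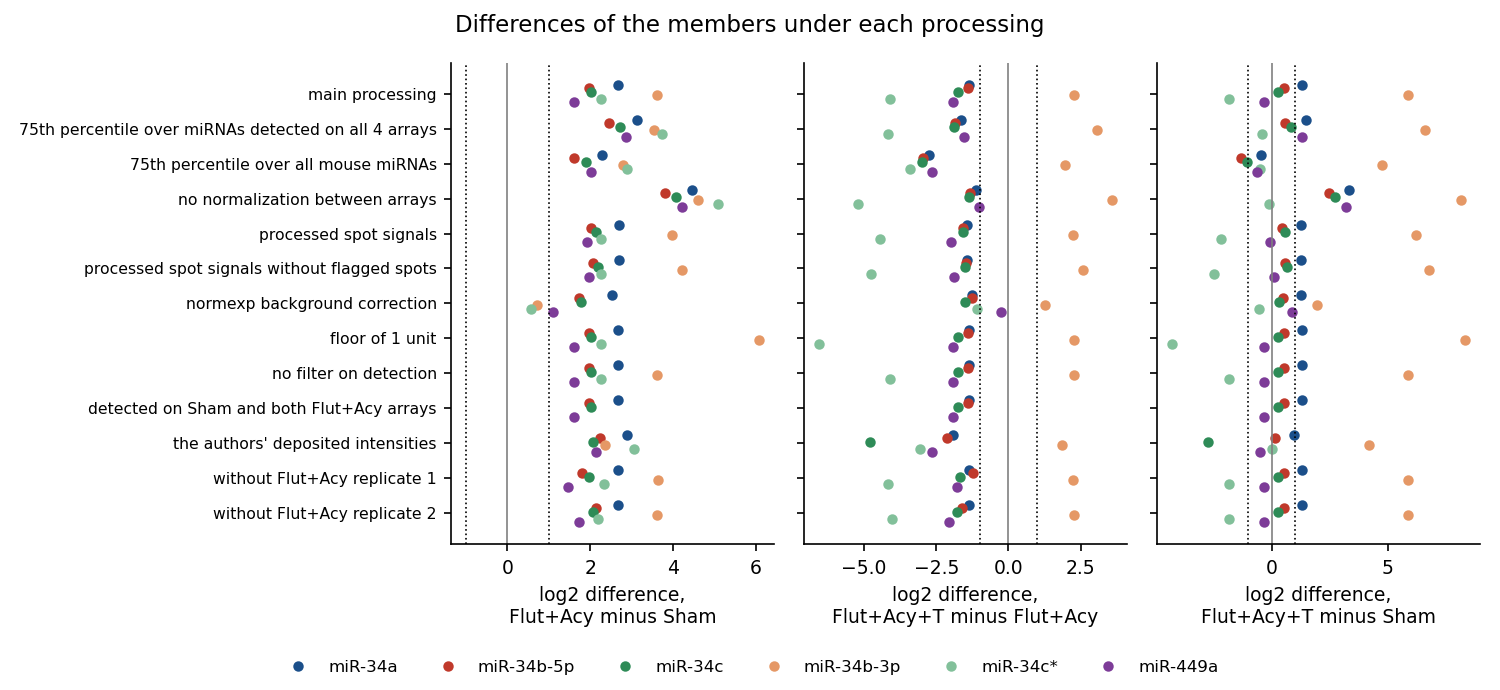
Log2 difference of each detected member (colored points) under the main processing and each of 12 alternatives, for the 3 comparisons; dotted lines mark 2-fold and the gray line no difference. All points lie above 0 between Flut+Acy and Sham, all but those of miR-34b-3p lie below 0 between Flut+Acy+T and Flut+Acy, and miR-34a lies between -0.46 and 3.35 between Flut+Acy+T and Sham.

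Other miRNAs linked to p53 act downstream of it or are processed with its help. Of the 8 on the list (miR-15a, miR-16, miR-107, miR-143, miR-145, miR-192, miR-194 and miR-215), Sham or Flut+Acy detected 7. Flut+Acy exceeded Sham at least 2-fold for 0 of the 7, against 21.9% of all 283, and was at least 2-fold below it for 1, miR-145 (log2 difference -1.05), against 15.9%. Their median log2 difference was 0.08, against -0.18 over the 283. The highest was miR-16 at 0.44. No test of the list against the family was made. On the list for muscle and peritubular cells below, miR-143 and miR-145 are counted again.

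The miRNAs outside the family were ranked by how near their pattern lay to the family's. The pattern was the median over miR-34a, miR-34b-5p, miR-34c and miR-449a, the 4 members detected on Sham, with log2 differences from Sham of 2.11 and 1.88 for the Flut+Acy pair and 0.42 for Flut+Acy+T. Among the 185 others detected on Sham and the Flut+Acy pair, the nearest by Euclidean distance were miR-470 (0.37), miR-201 (0.41), miR-883a-3p (0.53), miR-465c-3p (0.59) and miR-880 (0.61). The distance was taken over 3 differences that share the Sham array, and miR-470 and miR-883a-3p were not detected on Flut+Acy+T.

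Short lists of markers of other cell types were looked up as well, and their part in the result was not tested. Of 5 further miRNAs known from germ cells, Sham or Flut+Acy detected 3. In Flut+Acy 2 of the 3 lay at least 2-fold higher, against 21.9% of all 283 miRNAs. Among them miR-18a had total signals of 7.78 units for Sham, 204 and 245 on the Flut+Acy pair and -81.0 on Flut+Acy+T (not detected). For miR-184 they were -0.217 on Sham, 37.0 and 46.6 on the Flut+Acy pair and 3.16 on Flut+Acy+T, and it was detected on Flut+Acy alone. The list's summed scanner signal was 9.66 units for Sham, 250 and 309 on the Flut+Acy pair and 710 on Flut+Acy+T, where miR-469 made up most of it (681 units). As normalized signal the sum was 76.7 units for Sham, 314 and 323 for the Flut+Acy pair and 478 for Flut+Acy+T. Neither miR-122 nor miR-383 was detected on any array.

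Of 5 miRNAs known from duct epithelium, where ciliated cells also express the family, Sham or Flut+Acy detected 3. On both Flut+Acy arrays 2 of the 3 (miR-200a and miR-429) lay at least 2-fold higher, against 21.9% of all 283 miRNAs. The summed scanner signal of this list was 22.9 units for Sham, 274 and 310 on the Flut+Acy pair and 437 on Flut+Acy+T (normalized 171, 362, 366 and 210). No miRNA of this list was detected on Flut+Acy+T, where undetected miR-429 gave 376 units. On any array, miR-141 and miR-200c were not detected. The lists for blood cells, endothelium and for muscle and peritubular cells had 0 members at least 2-fold above Sham in Flut+Acy, against 21.9%. At least 2-fold lower were 2 of 6, 0 of 2 and 4 of 5 of their detected members, against 15.9%. On Flut+Acy+T no miRNA of the blood cell list was detected. The summed normalized signals were 1072 units for blood cells on Sham, 532 and 524 on the Flut+Acy pair and 403 on Flut+Acy+T. In the same order they were 1647, 2062, 1938 and 3279 for endothelium and 5142, 2717, 2860 and 3180 for muscle and peritubular cells.

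As a check of the labelled cell type, the gonadal somatic miRNA miR-202-3p was detected on Sham (103 units) and Flut+Acy (312 and 339) but not on Flut+Acy+T (8.25). Its log2 difference between Flut+Acy and Sham was -0.37. The other arm, miR-202-5p, was detected on the Flut+Acy pair (21.5 and 27.0 units) but on neither Sham (0.509) nor Flut+Acy+T (-22.5). With Sham undetected, its log2 difference between Flut+Acy and Sham was 2.86. Of these 2 arms, 1 thus lay at least 2-fold higher in Flut+Acy, against 21.9% of all 283 miRNAs.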

How the data were processed

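Sertoli cell RNA was hybridized in a single color to 4 Agilent arrays on 1 slide, read in 1 scan; the file headers give a miRNA design. The authors deposited scanner intensities from Feature Extraction 9.5.3.1 (total signals per miRNA with errors, spot signals and flags, not normalized between arrays), and a table of their quantile-normalized intensities, used as an alternative only. The software's detection and nonuniformity flags were used as deposited.

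Control spots and 10 viral miRNAs were left out. Quantile normalization, which the study's methods name, was applied to the total signals of the remaining 567 mouse miRNAs in Python 3.11.15. Values under a floor of 5.46 units were set to it before taking log2; the floor is the lowest normalized signal called detected on each array, as a median over the arrays. The deposited intensities were likewise taken to log2. The floor of their table came out below 0, so 5.46 units was used there too. Normexp used limma 3.58.1 in R 4.3.3 with an offset of 50. Quantile normalization and the log2 differences, not normexp, were tested on simulated arrays. Every simulated miRNA counted as detected, so the simulation does not cover undetected signals.

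Where a group had no detected signal, the brighter group's mean was set against the higher of the miRNA's own signal and the lowest detected signal. The number of arrays limits the precision, and no test across arrays was made.

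The miRNAs named are all members, any other miRNA with a member's seed, the 5 nearest patterns, and the p53-linked and cell type lists. Members and lists were chosen with earlier results of these data known. The 12 alternatives covered scaling, background correction, spot signals, the floor, the detection filter, the deposited table and each Flut+Acy array left out. RT-PCR and target experiments were not used here.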

Additional observations from a re-analysis of the deposited data

How the results depend on the processing

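All 6 detected members stayed higher in Flut+Acy than in Sham under the alternatives run, with 4 (normexp, against 5.65% of all miRNAs) to 6 past 2-fold (without normalization against 70.3%), and miR-34a, miR-34b-5p and miR-34c stayed at least 2-fold below Flut+Acy on the Flut+Acy+T array. Without normalization between arrays, Flut+Acy+T lay within 2-fold of Sham for 1 of the 6 detected members, miR-34c*, which neither array detected, and for 0 of the 5 members behind the 3 in the main processing. The miR-34a difference between the same arrays turned to -0.46 with the 75th percentile over all mouse miRNAs. The median of all miRNAs between Flut+Acy and Sham was -0.18 in the main processing, 0.40 and -0.34 with the 75th percentile taken over commonly detected miRNAs and over all mouse miRNAs, and 1.75 without normalization. The cause was not tested. With Flut+Acy replicate 1 or replicate 2 left out, 6 members passed 2-fold above Sham, against 23.7% and 23.0% of 283 miRNAs. On Flut+Acy+T, 5 members then lay 2-fold or more under the remaining Flut+Acy array, against 51.2% and 51.5% of 297. Among these 5 is miR-34c*, for which no fall could be measured. The comparison of Flut+Acy+T with Sham uses neither Flut+Acy array. No paired analysis was possible because Sham and Flut+Acy+T have 1 array each and their labels carry no replicate number. Signal over background limits miR-34b-3p, miR-34c* and miR-449a on Flut+Acy+T.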

Other observations

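In the authors' deposited table, whose combination of spots is not stated, miR-34c stood at 64.8 units for Sham, 282 and 265 on the Flut+Acy pair and 9.80 on Flut+Acy+T. In that table the log2 difference between Flut+Acy+T and Flut+Acy was -4.80, against -1.73 from the total signals, and that between Flut+Acy+T and Sham was -2.72, against 0.29. The median spot of its 20-base probe on Flut+Acy+T was 1213 units, and all 10 of these spots lay well above background. The table's scale is linear and its column medians were 2.32 on Sham, 3.36 and 3.05 on the Flut+Acy pair and 3.06 on Flut+Acy+T.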
